A study of Mus musculus with 34 samples.

Results

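Collagens are the main structural proteins of the extracellular matrix, and the 44 mouse genes described here are the protein-coding genes whose symbol is Col, a number, a, and a number. They were picked from the gene annotation by symbol out of 48709 genes in the 16 libraries of one set and 22018 genes in the 18 libraries of another, and all 44 were present in both. The RNA came from mouse embryonic stem (ES) cells in which genes for the MTA proteins, subunits of the chromatin remodelling complex NuRD, had been deleted. In the set of 16, Mta123KO cells (Mta1 del/del, Mta3 del/del and no working Mta2 allele) were compared with Control cells, each as 2 lines with 2 libraries a line, under culture labels of 2iL (inhibitors with LIF) or 48 h after these were removed in N2B27 medium, which favours neural differentiation. The Control lines carried a deleted copy of Mta1 next to a working one and floxed Mta3 alleles, so they were not wild type. Mta123KO cells were made by targeting Mta2 with CRISPR in Mta1 del/del, Mta3 flox/flox ES cells and then deleting Mta3 with Cre. In the set of 18, Mta1_del/del, Mta3_del/del and Mta2_KO cells were each compared with a parent (Mta1_flox/flox, Mta3_flox/flox and Mta2_WT) as 3 against 3 libraries in 2i with LIF. All cells were of the 129/Ola strain.

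A collagen molecule is a triple helix of alpha chains, each chain the product of one Col gene. The fibrillar types (I, II, III, V, XI, XXIV and XXVII) assemble into fibrils, type IV forms the sheet-like network of basement membranes, and the remaining types decorate fibrils, anchor epithelia, build beaded filaments or sit in the cell membrane. Basement membranes are among the earliest matrices of the mouse embryo, laid down beside the epiblast by primitive endoderm, and type IV collagen with laminin and nidogen is their core. By these roles the 44 genes were divided into 11 fibrillar, 8 basement membrane (6 type IV chains with Col15a1 and Col18a1) and 25 other genes.

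Type IV chains are encoded in divergent pairs that share a start region, and 2 of these pairs carried results below. Their promoter windows, running from 250 bases before to 50 bases after the RefSeq start (GRCm38.p6), are shown because the genes of each pair moved together; capitals mark matches to a GC box (GGGCGG, or CCGCCC on the other strand) or a CCAAT box (CCAAT, or ATTGG on the other strand). The Col4a1 window is chr8:11312777-11313076 on the minus strand, the Col4a2 window chr8:11312555-11312854 on the plus strand, the Col4a6 window chrX:141474027-141474326 on the minus strand and the Col4a5 window chrX:141475169-141475468 on the plus strand.
Col4a1: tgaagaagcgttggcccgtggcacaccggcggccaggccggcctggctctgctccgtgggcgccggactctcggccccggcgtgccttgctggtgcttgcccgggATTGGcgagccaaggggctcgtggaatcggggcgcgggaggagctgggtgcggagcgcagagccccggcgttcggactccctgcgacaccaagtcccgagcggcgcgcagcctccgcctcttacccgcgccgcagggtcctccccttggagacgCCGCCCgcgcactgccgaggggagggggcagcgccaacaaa
Col4a2: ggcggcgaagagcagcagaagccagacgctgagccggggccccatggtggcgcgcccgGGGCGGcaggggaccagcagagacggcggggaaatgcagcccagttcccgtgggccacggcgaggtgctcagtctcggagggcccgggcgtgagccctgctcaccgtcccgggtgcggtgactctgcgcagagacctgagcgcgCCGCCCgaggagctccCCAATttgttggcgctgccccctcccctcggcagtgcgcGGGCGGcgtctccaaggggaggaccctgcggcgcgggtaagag
Col4a6: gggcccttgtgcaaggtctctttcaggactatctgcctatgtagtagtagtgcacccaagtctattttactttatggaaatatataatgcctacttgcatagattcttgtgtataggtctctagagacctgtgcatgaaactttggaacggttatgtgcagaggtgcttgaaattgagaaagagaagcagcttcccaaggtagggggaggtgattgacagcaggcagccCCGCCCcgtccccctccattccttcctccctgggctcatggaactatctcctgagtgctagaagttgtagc
Col4a5: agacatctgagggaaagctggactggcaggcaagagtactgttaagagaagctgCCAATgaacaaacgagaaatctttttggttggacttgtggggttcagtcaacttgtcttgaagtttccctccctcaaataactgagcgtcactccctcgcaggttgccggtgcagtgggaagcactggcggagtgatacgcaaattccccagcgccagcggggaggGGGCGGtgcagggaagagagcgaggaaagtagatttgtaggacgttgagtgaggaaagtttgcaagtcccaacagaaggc

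The Col4a1 and Col4a2 starts lay 21 bases apart and their windows shared 78 bases, whereas the Col4a6 and Col4a5 starts lay 1343 bases apart. RefSeq windows were matched for 35 of the 44 genes, 38 windows in all. A GC box stood in 60.5% of these windows against 35.7% of all 32851 windows, a CCAAT box in 34.2% against 37.4%, and a TATA box (TATAAA, or TTTATA on the other strand) in 13.2% against 13.6%. These matches describe letters in the windows only.

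Reads assigned to genes came to between 37855790 and 57602285 per library in the set of 16 and between 13105820 and 40613585 in the set of 18, and levels are given as CPM (counts scaled to a common library total) within a set. At these depths 3 reads correspond to 0.0521 to 0.0793 CPM and 0.0739 to 0.229 CPM, respectively. Mta2 was at 4.75 to 8.99 CPM in Mta123KO libraries labelled 2iL and at 110 to 128 CPM in their Controls, and Mta3 at 14.1 to 23.8 and 56.6 to 74.7 CPM. The Mta1 transcript was not called, at 19.6 to 29.9 CPM in Mta123KO against 34.7 to 48.3 CPM in Control labelled 2iL, so it does not check the Mta1 genotype. The culture labels are less certain, because sample labels and file names give opposite cultures for the 16 libraries. Nanog and Esrrb, which mark naive pluripotency, were at 48.2 to 82.9 and 42.8 to 72.8 CPM in Control libraries labelled 2iL and at 866 to 1017 and 647 to 727 CPM in those labelled 48 h. Summed over 6 naive markers, Control libraries held 145 to 225 CPM labelled 2iL and 3484.5 to 3812.8 CPM labelled 48 h. Summed over 4 markers of the later, primed state, they held 747 to 1286.7 CPM and 73.5 to 85.1 CPM. The study reported that Nanog and Esrrb fell when wild-type cells were differentiated, the reverse of their order under these labels. In the set of 18, in 2i with LIF, the naive markers summed to 2966.9 to 5316.3 CPM. The primed markers summed to 59.4 to 216 CPM there. Control libraries labelled 48 h lay within both ranges and those labelled 2iL within neither, although levels are not comparable between the sets. The labels of the set of 16 may thus be exchanged. The sample labels are followed here and every group is named by its label; with labels exchanged, the genotype comparisons would trade places and each change with culture would take the opposite sign. Libraries of one line were closer to each other (chi-square per degree of freedom 6.32 to 19.4) than libraries of different lines (17.6 to 113), so 4 libraries stand for 2 lines and the p-values may be too small. The labels of the single mutants do not say whether their libraries came from separate cultures.

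Col18a1, the precursor of the angiogenesis inhibitor endostatin, was the most abundant collagen transcript in every group of both sets, per gene and per length. In Control cells labelled 2iL it reached 376, 363, 362 and 386 CPM, a length-adjusted level of 52.9 CPM per kilobase of exon, and made up 73.8% to 78.9% of all collagen counts. The next in that group per length were Col4a1 (3.22 CPM per kilobase), Col9a3 (2.54), Col6a5 (1.73) and Col4a2 (1.22). In this group 20 of the 44 genes averaged at least 1 CPM and 3 at least 10 CPM, while in Mta123KO libraries with the same label 27 and 11 did so. Under the 48 h label 18 genes averaged at least 1 CPM and 2 at least 10 CPM in Control, and 22 and 9 in Mta123KO.

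Summed over all members but Col18a1, the collagen level was 117 ± 15.9 CPM in Control and 341 ± 83.7 CPM in Mta123KO under the 2iL label, and 84.0 ± 13.8 and 247 ± 29.5 CPM under the 48 h label (SD, n = 4 each). All 4 Mta123KO libraries lay above all 4 Control libraries under either label. The fibrillar genes together came to 29.5 to 34.3 CPM in Control and 63.9 to 113 CPM in Mta123KO under the 2iL label, and to 23.0 to 25.5 CPM and 81.3 to 116 CPM under the 48 h label. These sums are given without a test.

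**Figure D1:**
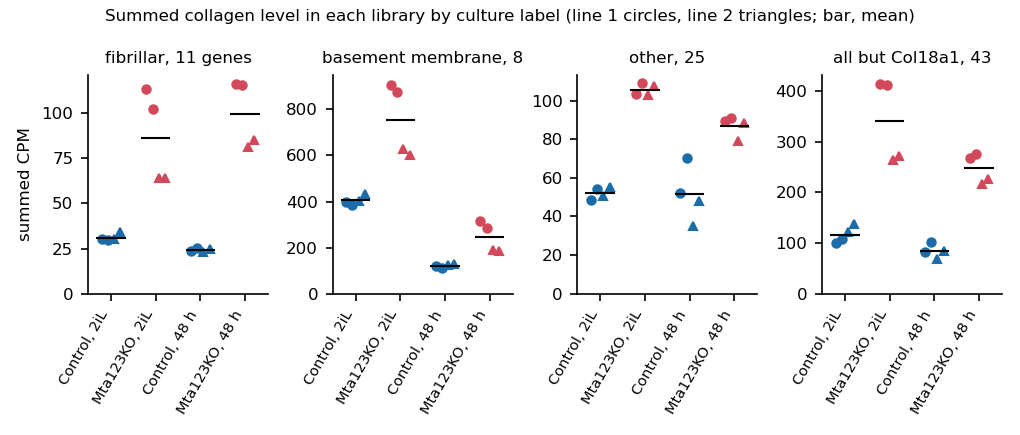
Summed CPM of the fibrillar, basement membrane and other collagen genes, and of all but Col18a1, in each of the 16 libraries by culture label and genotype (linear axes from 0; circles, line 1; triangles, line 2; bars, group means). In each panel the 4 Mta123KO libraries of a label sit above its 4 Control libraries, and line 1 sits above line 2 in the fibrillar and basement membrane panels of Mta123KO.

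Whether loss of the MTA proteins changed collagen expression was asked first, by comparing Mta123KO with Control under each culture label. Under the 2iL label 19 of the 44 collagen genes rose and 0 fell (edgeR quasi-likelihood test; a call needed an adjusted p below 0.05 and a log2 fold change beyond 1 in either direction). Of all 21651 genes tested, 13.2% rose and 7.43% fell. Under the 48 h label 11 rose and 1 fell, where 14.1% of 21079 genes rose and 5.93% fell. Of the 44 genes, 35 and 31 had enough reads to be tested, and Col3a1 and Col6a3 under the 2iL label and Col6a2 under the 48 h label passed that filter through the Mta123KO libraries alone, so that their calls follow in part from the filter. The median log2 fold change of the tested collagen genes was 1.17 and 0.82, against 0.01 and 0.01 for all genes tested.

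Col4a1, Col4a2, Col5a1, Col5a2, Col6a1, Col6a2, Col6a3, Col7a1, Col11a1 and Col17a1 rose under both labels. These 10 genes are 52.6% of those that rose under the 2iL label and 90.9% of those that rose under the 48 h label. The 2 comparisons share no library but use the same lines. The matching overlap over all genes tested was not worked out, so these shares do not set collagen genes apart. Other genes within 10 Mb of each called gene had median log2 fold changes between -0.09 and 0.32, highest around Col3a1 and Col5a2.

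**Figure D2:**
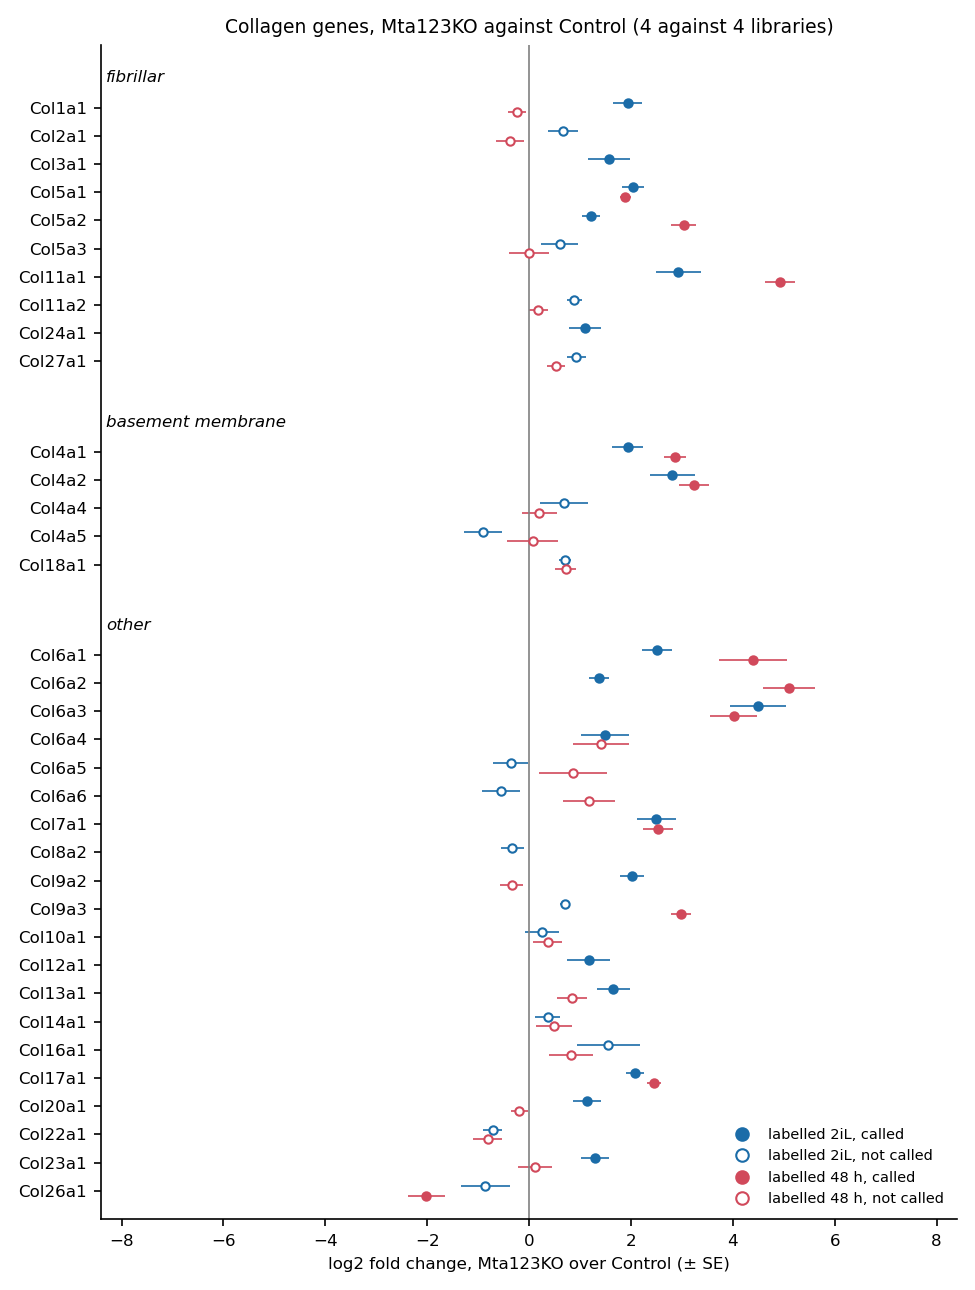
Log2 fold change of Mta123KO over Control with its standard error for each collagen gene tested, grouped as fibrillar, basement membrane and other, under the 2iL label (blue) and the 48 h label (red), 4 against 4 libraries; filled points passed both thresholds. Most filled points lie to the right of 0, with Col26a1 the filled point to the left.

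Among the fibrillar genes, 6 of 11 rose under the 2iL label and 3 of 11 under the 48 h label. Col5a1, the main chain of type V collagen, which starts the assembly of fibrils, was at 9.84, 8.74, 10.2 and 9.64 CPM in Control and at 52.6, 49.0, 28.4 and 28.1 CPM in Mta123KO under the 2iL label. All 4 mutant libraries were above the controls, and the log2 fold change was 2.04 ± 0.22 (SE, adjusted p = 0.0001). With the 48 h label, Control libraries held 7.53, 8.42, 8.43 and 8.82 CPM and Mta123KO libraries 32.8, 34.8, 26.2 and 27.6 CPM, a log2 fold change of 1.89 ± 0.11 (adjusted p = 4.5e-06). The gene lies at chr2:27886425-28039514 (GRCm38).

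Col5a2, the partner chain of type V, moved less under the 2iL label, from 1.09, 0.780, 0.860 and 1.12 CPM to 2.48, 2.20, 1.96 and 2.32 CPM (log2 fold change 1.22 ± 0.18, adjusted p = 0.00049). Labelled 48 h, it went from 0.462, 1.13, 1.04 and 0.821 CPM to 6.99, 6.63, 6.25 and 7.73 CPM (3.03 ± 0.25, adjusted p = 2.4e-05). The groups did not overlap under either label. Even in Mta123KO labelled 48 h, Col5a2 had a length-adjusted level of 0.719 CPM per kilobase beside 3.57 for Col5a1. Col5a3, the third type V chain, did not pass the test under either label (adjusted p = 0.20 and 0.99).

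Col11a1, whose chain is close to that of Col5a1 and joins cartilage fibrils, had the largest fibrillar fold changes. Control libraries labelled 2iL held 1.35, 1.52, 1.54 and 2.29 CPM and Mta123KO libraries 19.9, 18.4, 6.5 and 5.96 CPM, with line 1 above line 2. The levels labelled 48 h were 1.21, 1.37, 1.71 and 2.16 CPM in Control and 62.7, 61.4, 34.2 and 34.6 CPM in Mta123KO. The log2 fold changes were 2.93 ± 0.44 (adjusted p = 0.00064) and 4.93 ± 0.30 (adjusted p = 4.5e-06). Col11a2, the second chain of type XI, was higher by 0.89 ± 0.15 on the log2 scale under the 2iL label (adjusted p = 0.0011), short of the fold threshold, and by 0.18 ± 0.19 under the 48 h label (adjusted p = 0.45).

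The type I chains behaved differently from each other. Col1a1 was at 0.518, 0.636, 0.532 and 0.882 CPM in Control and at 3.03, 3.21, 1.81 and 1.78 CPM in Mta123KO under the 2iL label, an increase of 1.94 ± 0.28 (adjusted p = 0.00052). Labelled 48 h, the groups overlapped, at 1.07 to 1.41 CPM and 0.861 to 1.07 CPM (log2 fold change -0.23 ± 0.18, adjusted p = 0.31). Col1a2, which supplies the other chain of type I, was too low to be tested over all libraries. Its levels under the 2iL label were 0.538, 0.164, 0.491 and 0.970 CPM in Control and 0.106, 0.0679, 0.0244 and 0.0867 CPM in Mta123KO, with all mutant libraries below the controls. In comparisons of each mutant line with Control it passed the filter through Control alone, so that its log2 fold changes there (-2.58 and -3.18) follow in part from the filter.

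Col3a1, a chain of skin and vessel fibrils that often accompanies type I, was at 0.0205 to 0.123 CPM in Control and 0.238 to 0.317 CPM in Mta123KO labelled 2iL (1.56 ± 0.41, adjusted p = 0.011; adjusted p = 0.0862 with libraries of a line summed). Col24a1 rose by 1.10 ± 0.31 (adjusted p = 0.016; 0.146 with libraries of a line summed) from 0.226 to 0.319 CPM to 0.339 to 0.867 CPM. Col27a1 was higher in all Mta123KO libraries than in all Control libraries under both labels, at 4.37 to 5.13 over 1.64 to 2.93 CPM and 4.45 to 5.86 over 2.68 to 4.29 CPM, with log2 fold changes of 0.92 and 0.53 below the fold threshold. Col2a1, the main chain of cartilage fibrils and the fibrillar gene with the most reads in Control labelled 2iL, was at 8.76 to 10.6 CPM in Control labelled 2iL, at 23.7 and 19.7 CPM in line 1 of Mta123KO and at 9.38 and 9.84 CPM in line 2 (0.67 ± 0.29, adjusted p = 0.083).

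**Figure D3:**
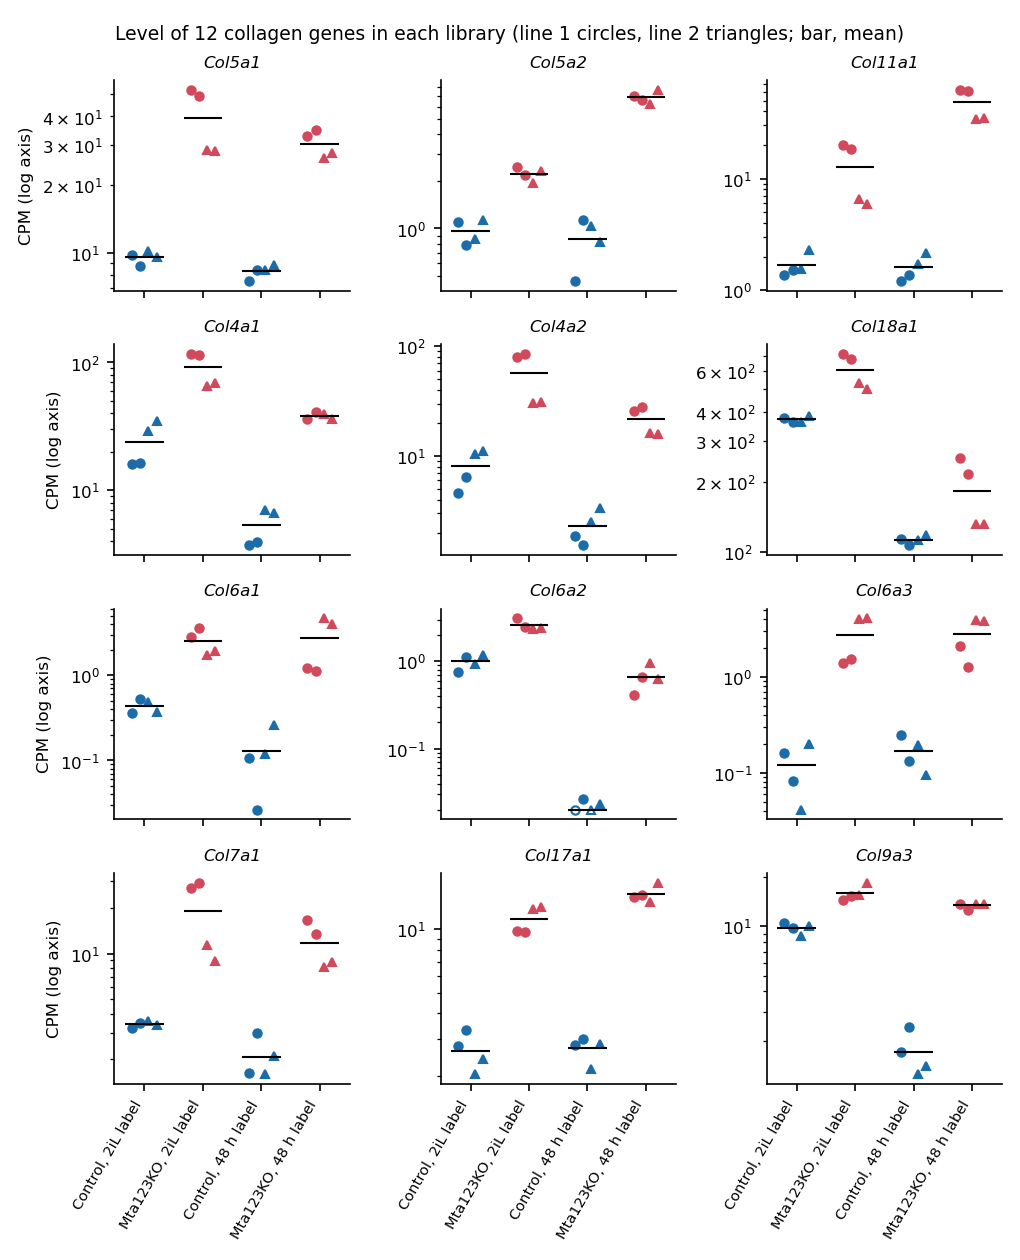
CPM on log axes of 12 collagen genes in each of the 16 libraries (circles, line 1; triangles, line 2; blue, Control; red, Mta123KO; bars, group means; open points, levels under 0.02 CPM drawn at that level). Mta123KO libraries lie above Control libraries of the same label in every panel. In Mta123KO labelled 2iL, line 1 lies above line 2 for Col4a2, Col7a1 and Col11a1.

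In the basement membrane group, Col4a1 and Col4a2 rose under both labels and the other 6 genes were not called. Their chains together form the standard type IV molecule. Col4a1 (chr8:11198423-11312826) was at 16.2, 16.3, 28.9 and 34.6 CPM in Control and at 116, 115, 66.0 and 68.5 CPM in Mta123KO labelled 2iL, with line 2 of Control higher than line 1 and line 1 of Mta123KO higher than line 2. Labelled 48 h, it was at 3.71, 3.92, 7.01 and 6.66 CPM in Control and 36.2, 41.0, 39.8 and 36.4 CPM in Mta123KO. The log2 fold changes were 1.93 ± 0.31 (adjusted p = 0.00083) and 2.87 ± 0.21 (adjusted p = 1.3e-05).

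Col4a2 (chr8:11312805-11449287), which starts next to Col4a1 at the windows printed above, followed it. Its levels labelled 2iL were 4.54, 6.42, 10.4 and 11 CPM in Control and 79.7, 85.0, 30.1 and 31.3 CPM in Mta123KO (2.81 ± 0.44, adjusted p = 0.00074). Labelled 48 h they were 1.87, 1.53, 2.48 and 3.38 CPM and 25.7, 28.1, 16.2 and 16 CPM (3.23 ± 0.29, adjusted p = 3.6e-05). Groups did not overlap for either gene. Adjusted for length, Col4a1 stood to Col4a2 at 2.67 ± 0.395 in Control labelled 2iL, 1.59 ± 0.404 in Mta123KO labelled 2iL, 2.07 ± 0.378 in Control labelled 48 h and 1.69 ± 0.485 in Mta123KO labelled 48 h (SD, n = 4 each), a description with no test. The first exons of the pair overlap on opposite strands, and whether the counting used strand is not given in the sources used here.

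Col18a1, the most abundant member, was at 711, 674, 532 and 502 CPM in Mta123KO labelled 2iL against 362 to 386 CPM in Control, and at 253, 217, 132 and 131 CPM against 106 to 118 CPM under the 48 h label. All mutant libraries were above their controls, yet the log2 fold changes of 0.71 ± 0.11 (adjusted p = 0.00093) and 0.72 ± 0.21 (adjusted p = 0.017) stayed under the fold threshold. Col4a5, an X-linked chain of kidney and lens basement membranes, was at 0.184 to 0.616 CPM in Control and 0.226 to 0.293 CPM in Mta123KO labelled 2iL (-0.91 ± 0.37, adjusted p = 0.067), and Col4a4 at 0.123 to 0.390 CPM and 0.226 to 0.607 CPM. Col4a3, Col4a6 and Col15a1 were too low to be tested; Col15a1 averaged 0.0835 CPM in Control and 0.310 CPM in Mta123KO labelled 2iL.

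Among the other types, 11 of 25 genes rose under the 2iL label, and 6 rose and 1 fell under the 48 h label. Type VI collagen forms beaded filaments around cells, and its standard chains Col6a1, Col6a2 and Col6a3 were low in Control and rose in Mta123KO. Col6a1 went from 0.358, 0.534, 0.491 and 0.375 CPM to 2.84, 3.58, 1.71 and 1.93 CPM labelled 2iL (2.51 ± 0.29, adjusted p = 0.00014). Labelled 48 h it went from 0.107, 0.0263, 0.120 and 0.258 CPM to 1.22, 1.12, 4.65 and 3.97 CPM (4.40 ± 0.67, adjusted p = 0.00063). Line 1 was thus the higher of the mutant lines under the 2iL label and the lower under the 48 h label.

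Col6a2, which lies beside Col6a1 on chromosome 10 and joins it in the type VI molecule, was at 0.757, 1.13, 0.921 and 1.19 CPM in Control and 3.10, 2.47, 2.37 and 2.38 CPM in Mta123KO labelled 2iL (1.37 ± 0.19, adjusted p = 0.00042). Labelled 48 h, the 4 Control libraries together held 3 reads and the Mta123KO libraries 125 reads, a ratio of 39.5 with a counting interval of 13.2 to 194 (95%, exact binomial, counting error only; adjusted p = 6.3e-05). Col6a3, the third chain of the molecule, went from 0.159, 0.0821, 0.0409 and 0.198 CPM to 1.40, 1.52, 3.98 and 4.05 CPM labelled 2iL and from 0.249, 0.132, 0.193 and 0.0938 CPM to 2.08, 1.25, 3.92 and 3.81 CPM labelled 48 h. Its log2 fold changes were 4.49 ± 0.55 (adjusted p = 0.00019) and 4.01 ± 0.46 (adjusted p = 0.00013), with line 2 higher than line 1 under both labels.

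The alternative type VI chains sit side by side on chromosome 9 and differed between the mutant lines. Col6a4 was called under the 2iL label (1.49 ± 0.48, adjusted p = 0.027), although the groups overlapped: Mta123KO line 1 held 1.99 and 1.47 CPM and line 2 held 6.94 and 6.11 CPM, beside 1.21 to 1.72 CPM in Control. Col6a5 was the fourth most abundant collagen per length in Control labelled 2iL, at 15.1, 13.9, 18.7 and 17.3 CPM, with 7.25 and 6.41 CPM in Mta123KO line 1 and 17.6 and 19.5 CPM in line 2 (-0.36 ± 0.34, adjusted p = 0.41). Col6a6 stayed under 1 CPM in the 16 libraries and was not called (adjusted p = 0.25 and 0.085).

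Col7a1, the chain of the anchoring fibrils that fasten epithelia to the tissue below, was even in Control labelled 2iL, at 3.23, 3.45, 3.58 and 3.37 CPM, and reached 27.0, 29.3, 11.4 and 8.91 CPM in Mta123KO (2.49 ± 0.38, adjusted p = 0.00065). Labelled 48 h it was at 1.62, 3.0, 1.59 and 2.09 CPM and at 16.7, 13.5, 8.12 and 8.79 CPM (2.53 ± 0.30, adjusted p = 0.00015). Col17a1, a transmembrane collagen of the hemidesmosomes of skin epithelium, was higher in all Mta123KO libraries than in all Control libraries under both labels. Its libraries held 2.79, 3.32, 2.05 and 2.43 CPM in Control and 9.82, 9.69, 12.4 and 12.7 CPM in Mta123KO labelled 2iL (2.08 ± 0.17, adjusted p = 2.6e-05), and 2.82, 3.03, 2.17 and 2.84 CPM and 14.2, 14.5, 13.5 and 16.6 CPM labelled 48 h (2.46 ± 0.13, adjusted p = 2.7e-06).

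Type IX collagen, which coats cartilage fibrils, split by chain and label. Col9a2 rose under the 2iL label, from 3.40, 5.46, 2.46 and 3.13 CPM to 14.4, 15.4, 12.5 and 16.3 CPM (2.02 ± 0.23, adjusted p = 0.00013), and under the 48 h label was at 15.9 to 38.1 CPM in Control and 17.4 to 23.2 CPM in Mta123KO (-0.34 ± 0.23, adjusted p = 0.24). Col9a3 did the reverse: it was called under the 48 h label, at 1.72, 2.45, 1.25 and 1.41 CPM in Control and 13.6, 12.5, 13.7 and 13.6 CPM in Mta123KO (2.99 ± 0.20, adjusted p = 7.0e-06), and under the 2iL label differed by 0.70 ± 0.10 (adjusted p = 0.00046), below the fold threshold. Col9a1 was too low to be tested under either label.

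Of the transmembrane genes besides Col17a1, Col13a1 rose by 1.65 ± 0.33 (adjusted p = 0.0027) under the 2iL label, from 1.02 to 3.20 CPM to 5.25 to 8.53 CPM, and Col23a1 by 1.30 ± 0.28 (adjusted p = 0.0043; 0.0719 with libraries of a line summed), from 0.776 to 1.27 CPM to 1.65 to 3.55 CPM. Of the genes for fibril-associated chains, Col20a1 rose by 1.14 ± 0.28 (adjusted p = 0.0077; 0.0769 with libraries of a line summed) and Col12a1 by 1.17 ± 0.42 (adjusted p = 0.043), the latter from 0.144 to 0.369 CPM to 0.269 to 0.657 CPM with overlap. Col12a1 lost its call when any of 5 of the 8 libraries was left out (adjusted p = 0.101 to 0.110), and Col6a4 likewise for 5 libraries; with libraries of a line summed their adjusted p was 0.199 and 0.182. Col26a1 was the gene that fell: under the 48 h label it was at 6.82, 7.05, 3.13 and 2.89 CPM in Control and 0.9, 0.856, 1.40 and 1.68 CPM in Mta123KO (-2.01 ± 0.37, adjusted p = 0.0018). With libraries of a line summed its adjusted p was 0.0592, so the call was lost.

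Col22a1, found at muscle and tendon junctions, was lower in all Mta123KO libraries than in all Control libraries under both labels, by -0.72 (adjusted p = 0.011) and -0.81 (adjusted p = 0.038), below the fold threshold. Col16a1 was at 3.16 and 4.05 CPM in line 1 and at 0.758 and 0.607 CPM in line 2 of Mta123KO labelled 2iL, beside 0.478 to 1.15 CPM in Control (adjusted p = 0.060). Col8a2, Col10a1 and Col14a1 were tested and not called under the 2iL label (adjusted p = 0.26, 0.55 and 0.25). Col8a1, Col19a1, Col25a1 and Col28a1 were not tested, with group means of at most 0.468 CPM, that of Col25a1 in Mta123KO labelled 2iL.

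Several of these levels depended on the mutant line, so each line was also set against the 4 Control libraries of its label. Under the 2iL label 19 collagen genes rose and 3 fell in line 1, where 16.1% of all genes tested rose and 10.6% fell, and 19 rose and 2 fell in line 2, where 12.1% rose and 8.31% fell. Under the 48 h label 17 rose and 2 fell in line 1 (16.3% and 8.25% of all genes tested) and 14 rose and 1 fell in line 2 (13% and 6.56%). The lines of a label share their Control libraries. Some calls of 1 line are of genes low in Control. Col15a1 and Col25a1, called up in line 2 under the 2iL label, were at most at 0.110 and 0.176 CPM in Control. Under the 48 h label Col8a2 and Col12a1 (line 1) were at most at 0.158 and 0.132 CPM in Control, and Col25a1 (line 2) had 1 read there. The read filter lay at 0.217 and 0.224 CPM in the fits of both lines, so these calls follow in part from the filter.

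Set against each other under the 2iL label, the mutant lines differed at 11 collagen genes, 5 of them higher in line 1 (6.71% of all 23279 genes tested) and 6 lower (4.66%). Col16a1 was higher in line 1 by 2.41 ± 0.35 (adjusted p = 0.00043), Col11a1 by 1.63, Col7a1 by 1.48, Col4a2 by 1.43 and Col2a1 by 1.18. Col25a1 was lower by -2.19, Col6a4 by -1.90, Col26a1 by -1.84, Col6a3 by -1.46, Col6a5 by -1.43 and Col5a3 by -1.40. Col25a1 did not pass the read filter when line 1 was set against Control, so its call here follows in part from the filter. Under the 48 h label 2 were higher in line 1 (5.62% of all genes tested) and 4 lower (3.58%): Col2a1 and Col8a2, and Col6a1, Col6a3, Col6a4 and Col6a5. These tests rest on 2 libraries a line, with the 4 Control libraries of the label in the same fit as a further group. The spread used in these tests thus came from libraries of a line and from Control libraries of different lines.

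Markers of cell state and of other cell types were read beside these changes. Under the 2iL label 3 of 6 naive markers rose and 4 of 5 early neural markers fell. Of 4 primed markers 3 fell and 1 rose. Naive sums were 379 to 509 CPM in Mta123KO and 145 to 225 CPM in Control. Primed sums were 228 to 311 CPM and 747 to 1286.7 CPM. Under the 48 h label 2 naive and 2 early neural markers fell and 1 primed marker rose. Naive sums there were 1800.5 to 2700.9 CPM and 3484.5 to 3812.8 CPM. All 7 trophoblast markers rose in Mta123KO labelled 2iL, and their summed level was 370.7 and 402 CPM in line 1 and 73.6 and 77.8 CPM in line 2, beside 15.9 to 17.4 CPM in Control; under the 48 h label 4 of 7 rose and the sums were 136 to 711 CPM beside 15.4 to 20.4 CPM. Of 8 primitive and parietal endoderm markers 2 rose and 2 fell under the 2iL label, with sums of 16.9 to 28.4 CPM in Mta123KO and 8.90 to 22.6 CPM in Control, where Dab2 and Sox7 rose by 1.47 and 2.58 and Gata4 and Gata6 fell by 1.25 and 2.68. Under the 48 h label Dab2 and Pdgfra rose by 4.05 and 1.30 and Gata4 fell by 1.98, and the sums did not overlap, at 18.8 to 21.8 CPM in Mta123KO and 4.95 to 6.18 CPM in Control. Of 9 fibroblast or mesenchyme markers 2 rose and 1 fell under the 2iL label, and 2 rose under the 48 h label, with sums of 15.6 to 23.7 CPM in Mta123KO and 10.8 to 16.2 CPM in Control over both labels. Their part in the collagen changes was not tested, and in bulk RNA more cells of a type and more RNA per cell cannot be told apart.

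How collagen expression changed between the culture labels was compared within each genotype. In Control 4 of 44 genes were higher and 13 lower under the 48 h label than under the 2iL label, where 10.4% of all 21240 genes tested were higher and 13.2% lower. In Mta123KO 2 were higher and 10 lower, where 4.84% and 4.62% of 21505 genes were. The tested collagen genes had a median log2 fold change of -0.69 in Control and -0.39 in Mta123KO, against 0.01 and 0.00 for all genes. Libraries of the same number came from the same line in the 2 groups compared. When libraries of a line were summed, so that 2 lines stood against 2, 0 collagen genes were called in Mta123KO. Of all 24445 genes 0 were called, with 3568 at an unadjusted p under 0.05 (edgeR). That summed fit did not pair each line with itself across the labels. A fit with replicate number as a block, which pairs the libraries, kept all 12 collagen calls in Mta123KO. Of all 21505 genes, 1367 were called higher and 1293 lower in it, but it counts libraries of a line apart.

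Col18a1 carried most of the change in level. It went from 372 ± 11.4 CPM to 113 ± 4.87 CPM in Control and from 605 ± 103 CPM to 183 ± 61.4 CPM in Mta123KO (SD, n = 4), with log2 fold changes of -1.73 ± 0.05 (adjusted p = 1.3e-09) and -1.72 ± 0.24 (adjusted p = 0.0017). Col4a1 was lower by -2.18 ± 0.30 in Control and -1.25 ± 0.20 in Mta123KO, and Col4a2 by -1.81 ± 0.31 and -1.40 ± 0.40. The Col4a2 call in Mta123KO was lost without any of 6 of the 8 libraries (adjusted p = 0.0528 to 0.0902). The basement membrane genes together came to 387 to 432 CPM in Control labelled 2iL and 113 to 129 CPM labelled 48 h. Several of their partners went the other way in Control: Lama1 (laminin alpha 1) was higher by 3.31, Nid1 (nidogen, which links laminin to type IV collagen) by 3.42 and Sparc by 1.85.

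**Figure D4:**
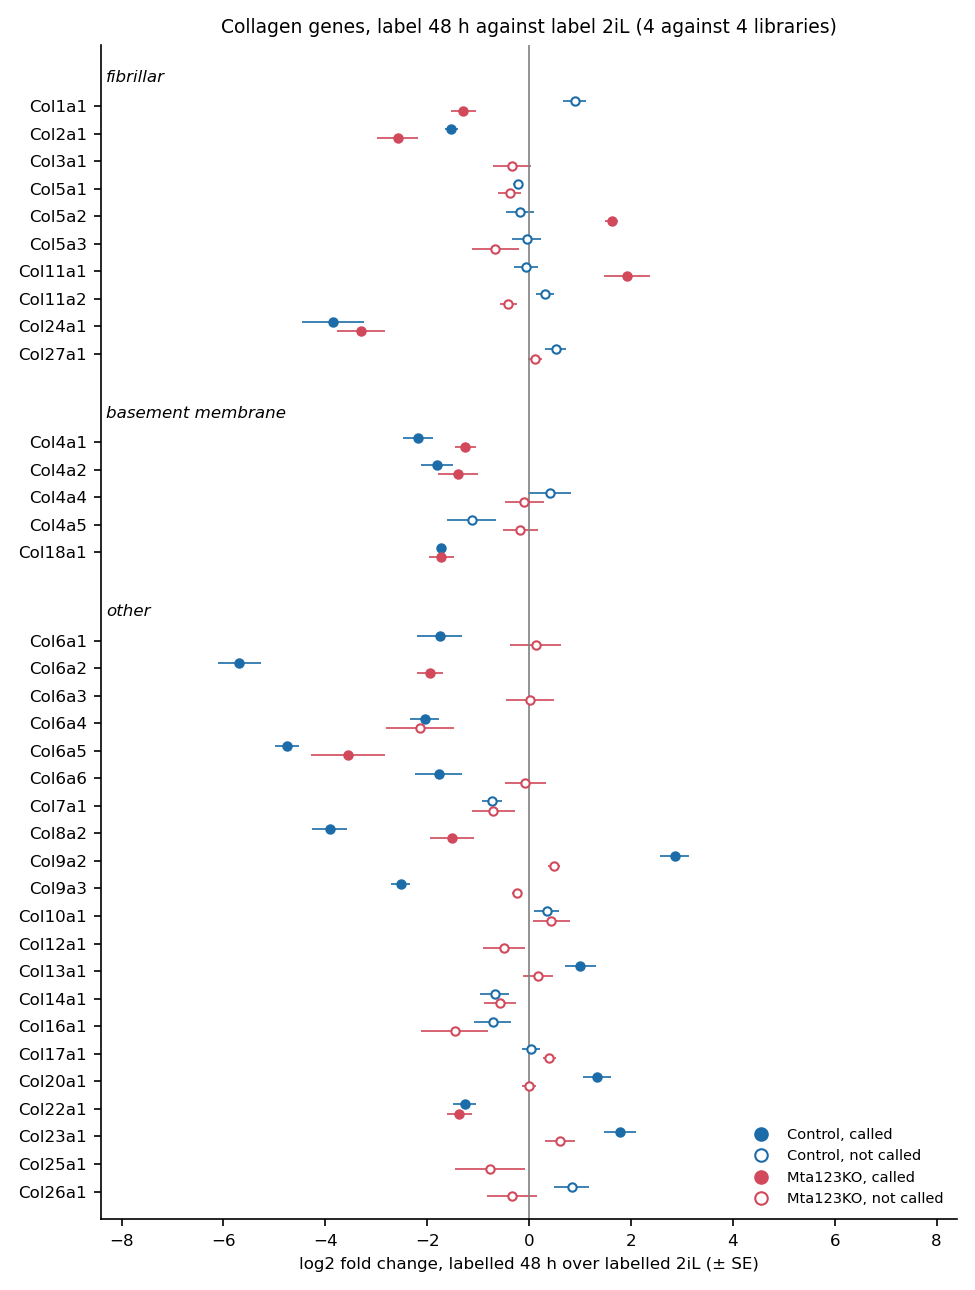
Log2 fold change of libraries labelled 48 h over libraries labelled 2iL with its standard error for each collagen gene tested in Control (blue) and Mta123KO (red), 4 against 4 libraries; filled points passed both thresholds. Col18a1, Col4a1, Col4a2, Col2a1, Col22a1, Col24a1, Col6a2, Col6a5 and Col8a2 are filled to the left of 0 in both genotypes.

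The alternative type VI chain Col6a5 showed one of the steepest differences, from 13.9 to 18.7 CPM labelled 2iL to 0.237 to 0.782 CPM labelled 48 h in Control (-4.75 ± 0.24, adjusted p = 4.0e-08) and from 6.41 to 19.5 CPM to 0.277 to 1.98 CPM in Mta123KO (-3.55 ± 0.72, adjusted p = 0.0091). Col6a2 went from 192 reads to 3 in Control, a ratio of 59.1 with a counting interval of 19.9 to 289, and was lower by -1.95 ± 0.25 in Mta123KO. Col24a1 went from 54 reads to 3 in Control, a ratio of 16.6 with an interval of 5.40 to 83.2, and Col8a2 was lower by -3.91 in Control and -1.51 in Mta123KO, the latter lost without any of 6 libraries (adjusted p = 0.0626 to 0.0798). Col6a2, Col8a2 and Col24a1 passed the read filter in Control through the libraries labelled 2iL alone, as did Col24a1 in Mta123KO. Col2a1 was lower by -1.53 ± 0.13 and -2.58 ± 0.41, and Col22a1 by -1.27 and -1.37.

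In the other direction, Col9a2 was at 2.46 to 5.46 CPM labelled 2iL and 15.9 to 38.1 CPM labelled 48 h in Control (2.86 ± 0.29, adjusted p = 8.2e-06), and in Mta123KO at 12.5 to 16.3 and 17.4 to 23.2 CPM (0.48, below the fold threshold). Col23a1, Col20a1 and Col13a1 were higher in Control labelled 48 h by 1.79, 1.34 and 1.0, the last with overlap and lost without any of 4 libraries, and Col5a2 and Col11a1 were higher in Mta123KO labelled 48 h by 1.62 ± 0.13 (adjusted p = 0.00015) and 1.92 ± 0.45 (adjusted p = 0.017). Col6a1, Col6a4, Col6a6 and Col9a3 were called lower in Control and Col1a1 in Mta123KO. The Control libraries of this comparison are the same as those in the genotype comparisons.

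Whether the genotype effect itself differed between the labels was tested as an interaction over all 16 libraries. For 5 collagen genes the effect was larger under the 48 h label (7.66% of all 22973 genes tested) and for 3 smaller (5.37%). Col6a2 differed by 3.75 ± 0.53 (adjusted p = 0.00012), Col8a2 by 2.42, Col9a3 by 2.30 ± 0.22 (adjusted p = 3.0e-06), Col11a1 by 2.00 and Col5a2 by 1.82. Col9a2 differed by -2.35 ± 0.34 (adjusted p = 0.00015), Col1a1 by -2.17 and Col20a1 by -1.32. For Col4a1, Col5a1, Col7a1 and Col17a1 the interaction did not pass the test, with differences of 0.94 ± 0.39, -0.15 ± 0.25, 0.04 ± 0.49 and 0.39 ± 0.21.

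The enzymes and partners that make, cross-link and bind collagen were read from a list of 54 genes. In Mta123KO against Control 11 of 50 tested rose and 2 fell under the 2iL label, where 13.2% of all genes tested rose and 7.43% fell, and 17 of 47 rose and 4 fell under the 48 h label, where 14.1% rose and 5.93% fell. The list medians were 0.16 and 0.16. None of the 17 genes for chain hydroxylation and folding was called under the 2iL label, and under the 48 h label P3h3 rose and Crtap, a partner of prolyl 3-hydroxylase, fell. Serpinh1, the collagen chaperone HSP47, averaged 125 and 143 CPM in Control and Mta123KO labelled 2iL. Of the 8 procollagen processing genes, Bmp1, the C-proteinase, rose by 2.1 (adjusted p = 0.016) and 2.82, and Adamts14, an N-proteinase, by 1.71 and 1.37, while Tll1, a relative of Bmp1, fell by 4.24 and 3.84.

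Cross-linking enzymes of the lysyl oxidase family gave Loxl4 up by 3.09 under the 2iL label and Loxl2 and Loxl4 up by 2.67 and 1.03 under the 48 h label. Of 7 collagen receptors, the integrin chains Itga1 and Itga11 rose under both labels, by 1.09 and 2.55 and by 1.33 and 2.15, and Ddr2, a receptor kinase for fibrillar collagen, fell by 2.35 and 3.52. Among 8 basement membrane partners, Lama5, Lamb1 and Hspg2 (perlecan) rose under both labels, and Lama5 averaged 256 and 694 CPM in Control and Mta123KO labelled 2iL. Nid1 and Sparc rose under the 2iL label alone, and Lama1 fell under the 48 h label. Of 9 turnover genes 1 rose under the 2iL label and 7 under the 48 h label, among them Mmp2, a gelatinase, by 2.80 and Mrc2, which takes up collagen fragments, by 3.57.

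In the single mutants the collagen genes were compared with those of each parent line. Mta1_del/del and Mta1_flox/flox gave 0 collagen genes, and 0% of all 14561 genes tested rose and 0% fell, with 50 of all genes and 1 collagen gene at an unadjusted p under 0.05 (edgeR; 28 collagen genes tested; DESeq2 0 collagen genes). With the replicate numbers as a block, which pair these libraries, 468 of all genes were at an unadjusted p under 0.05 and the count of calls was again 0. That collagen gene was Col25a1, at 0.703, 0.880 and 0.707 CPM in the parent and 0.457, 0.392 and 0.150 CPM in the mutant, chosen after its values were seen. The parent libraries varied widely: Col4a1 was at 2.25, 7.77 and 19.6 CPM, so that modest differences were not detectable here.

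Mta2_KO against Mta2_WT gave 2 collagen genes up and 5 down of 36 tested, where 5.31% of all 15602 genes rose and 6.04% fell. The X-linked pair Col4a5 and Col4a6, whose windows are printed above, fell together. Col4a5 was at 2.06, 1.96 and 1.80 CPM in Mta2_WT and 0.411, 0.262 and 0.163 CPM in Mta2_KO (-2.74 ± 0.30, adjusted p = 6.7e-05), and Col4a6 at 1.12, 1.25 and 0.807 CPM and 0.205, 0.0583 and 0.130 CPM (-2.95 ± 0.42, adjusted p = 0.00038). Other genes within 10 Mb had a median log2 fold change of 0.10, and Col4a6 passed the read filter through Mta2_WT alone.

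Col13a1 fell in Mta2_KO from 6.45, 6.43 and 6.55 CPM to 2.80, 3.0 and 3.0 CPM (-1.14 ± 0.10, adjusted p = 1.9e-05), Col9a3 by 1.14 and Col12a1 by 1.05. Col11a2 rose from 0.659, 0.706 and 0.993 CPM to 1.98, 1.66 and 1.96 CPM (1.26 ± 0.23, adjusted p = 0.0017) and Col6a5 by 1.40 ± 0.27 (adjusted p = 0.0021). Some of these calls were lost under alternatives. Col12a1 lost its call with DESeq2 (adjusted p = 0.0588) and without Mta2_KO replicate 2, Mta2_KO replicate 3 or Mta2_WT replicate 3. Col9a3 lost it without Mta2_WT replicate 3. In 1 edgeR fit of all libraries, Col12a1 and Col6a5 lost theirs (adjusted p = 0.354 and 0.0696). Neither Col11a2 nor Col6a5 was called in Mta123KO against Control over both lines. Col4a1 and Col4a2, which rose in Mta123KO, were lower in Mta2_KO by -0.49 (adjusted p = 0.0020) and -0.41 (adjusted p = 0.019), below the fold threshold, and Col5a1 and Col11a1 were higher by 0.69 and 0.64. Genes around Col11a1 on chromosome 3 had a median log2 fold change of -0.50 in this comparison and those around Col25a1 one of -0.53. Mta2_KO is a single line, so its genotype and its line cannot be told apart. In the list of 54 collagen enzymes and partners 8 of 48 tested rose and 8 fell, where 5.31% of all genes tested rose and 6.04% fell. Of the 17 genes for chain hydroxylation and folding 5 rose, P3h3 and Mia3 among them, and Colgalt2 fell. Serpinh1 rose by 1.57, from 254 to 749 CPM on average, P4hb (the beta subunit of prolyl 4-hydroxylase) by 1.30 and P4ha1 (its catalytic subunit) by 1.04. Elsewhere in the list Adamts14, Pcolce and Pcolce2 rose, and Bmp1, Adamts2, Loxl3, Itga10, Ddr2, Lama1 and Mmp2 fell.

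Mta3_del/del against Mta3_flox/flox gave 12 collagen genes down and 0 up of 39 tested, where 5.25% of all 15522 genes fell and 0.812% rose. Col4a1 was at 19.5, 45.6 and 31.5 CPM in the parent and 10.01, 7.70 and 9.58 CPM in the mutant (-1.88 ± 0.29, adjusted p = 0.015), and Col4a2 at 12.1, 21.3 and 20.3 CPM and 3.75, 4.46 and 4.49 CPM (-2.13 ± 0.24, adjusted p = 0.013). The head-to-head pair thus moved together again, with no overlap of the groups. Col5a1 fell from 22.5, 46.8 and 35.3 CPM to 14.6, 9.36 and 15.7 CPM (-1.45 ± 0.28, adjusted p = 0.021), and Col6a1, Col9a3, Col13a1, Col16a1, Col20a1 and Col22a1 fell by between 1.12 and 2.66. Col3a1 and Col6a1 passed the read filter through the parent libraries alone.

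The fibril genes of connective tissue stood out in the third parent library. Col3a1 was at 1.24, 0.670 and 20.5 CPM in Mta3_flox/flox and 0, 0.237 and 0.0863 CPM in Mta3_del/del (-6.09 ± 1.53, adjusted p = 0.034), and Col1a1 at 5.72, 5.22 and 23.1 CPM and 2.39, 2.76 and 2.67 CPM (-2.15 ± 0.54, adjusted p = 0.034). Col12a1 (1.93, 1.52 and 6.34 CPM), Col1a2 (1.45, 0.882 and 10.7 CPM) and Col8a1 (0.413, 0.458 and 3.11 CPM) had their highest parent value in the same library. Of 9 fibroblast or mesenchyme markers, summed at 20.1, 36.7 and 25.1 CPM in the parent and 12.4 to 15.1 CPM in the mutant, Dcn and Postn were highest in that library at 0.590 and 1.06 CPM, whereas Thy1, Twist1, Twist2, Pdgfrb and Fbn1 were highest in the second parent library and Lum and Prrx1 in the first; their part in the collagen difference was not tested. Without that library 7 of the 12 calls were lost, Col1a1, Col3a1 and Col12a1 among them, and 7 collagen genes were called. Without Mta3_del/del replicate 1 the collagen count was 0, without its replicate 3 it was 4, and without Mta3_flox/flox replicate 2 it was 6. Over all omissions of 1 library it ran from 0 to 18. The calls over all genes moved too, from 126 up and 815 down with all libraries. Without Mta3_del/del replicate 1, 1 rose and 2 fell of 16188. Rises and falls were 251 and 1473 without its replicate 2, and 41 and 205 without its replicate 3. For Mta3_flox/flox they were 102 and 451 without replicate 1, 38 and 186 without replicate 2, and 44 and 331 without replicate 3.

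**Figure D5:**
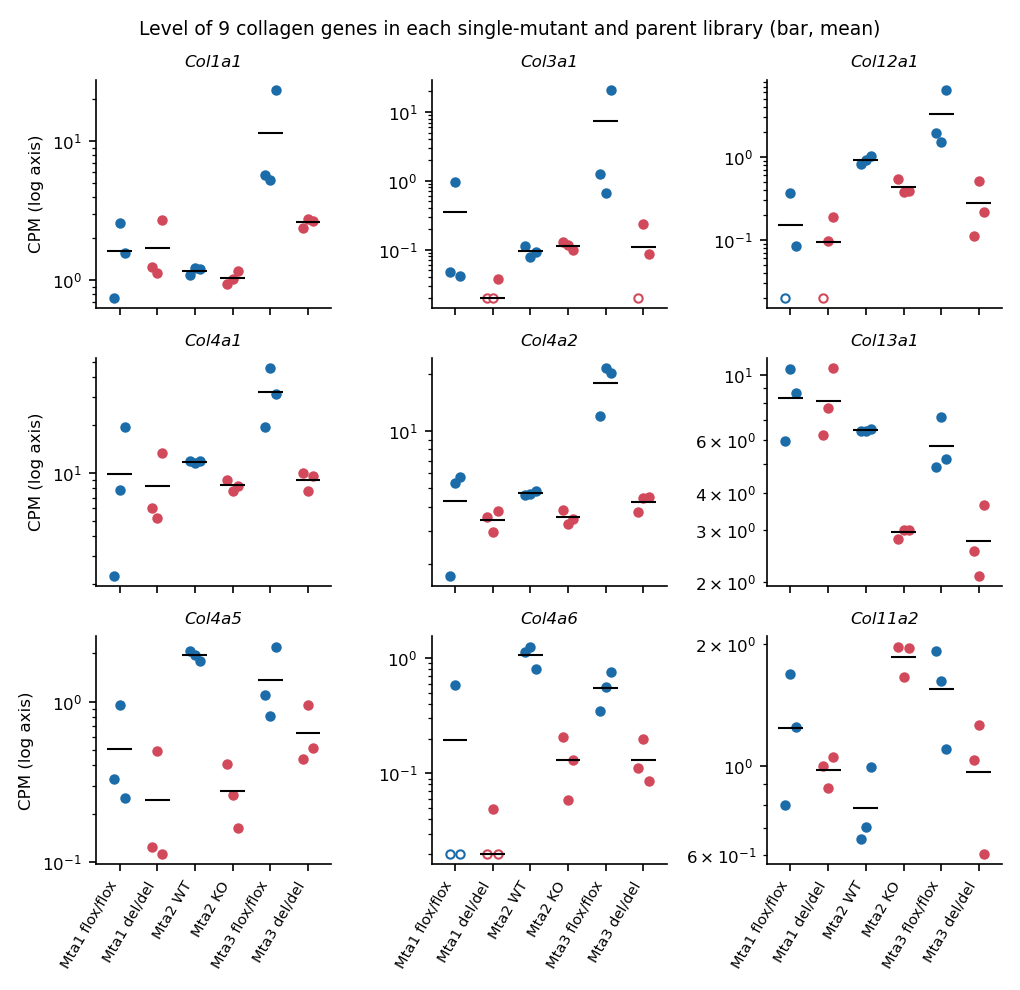
CPM on log axes of 9 collagen genes in each of the 18 single-mutant and parent libraries (blue, parent; red, mutant; bars, group means; open points, levels under 0.02 CPM drawn at that level). The third Mta3 flox/flox library lies apart for Col1a1, Col3a1 and Col12a1, and the Mta2_KO libraries lie below Mta2_WT for Col4a5, Col4a6 and Col13a1.

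Col4a1, Col4a2, Col5a1 and Col6a1, which rose in Mta123KO, were thus called in no single mutant as increases and in Mta3_del/del as decreases. In the Mta3_flox/flox parent 34 collagen genes averaged at least 1 CPM, against 20 to 24 in the other groups of its set. Col4a1 averaged 32.2 CPM in this parent, 9.10 CPM in Mta3_del/del and 8.24 to 11.8 CPM in the Mta1 and Mta2 groups. Col5a1 averaged 34.9 CPM, 13.2 CPM and 5.71 to 33.8 CPM in the same order. Why the parent differed was not tested. The sets hold different gene lists and were not fitted together, and the difference between them was not tested.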

How the data were processed

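RNA-seq libraries of mouse ES cells were prepared and sequenced by the authors, who trimmed reads with Trim Galore, aligned them with TopHat2 to GRCm38/mm10 and counted them per Ensembl gene with featureCounts; the deposited values are raw read counts per gene, 1 table per library. Identifiers were matched to GENCODE vM21 (48349 of 48709 and 21852 of 22018 matched), and spike-in rows were kept apart. Counts were analysed with edgeR 4.0.16 (R 4.3.3). Genes were filtered with filterByExpr, scaled by TMM and tested by the quasi-likelihood F test with Benjamini-Hochberg adjustment over all genes tested. Each comparison was fitted on its own libraries, except that fits comparing the mutant lines also held the Control libraries of the label. Calls needed an adjusted p below 0.05 and a log2 fold change beyond 1 in either direction, as in the study's methods. Standard errors were taken from the fold change and its F statistic. CPM levels used TMM factors over all libraries of a set and are not comparable between the sets. Total counts per library (37855790 to 57602285 and 13105820 to 40613585) limit what can be seen of the lowest genes, and intervals and floors cover counting error only.

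Samples were grouped by their labels. The collagen family was chosen for description and the gene lists were drawn up with earlier results of these data known; the symbol rule itself uses no measured value. The text names every member, with values for those called or at 10 CPM or more. Replicate numbers marked the same line between the culture labels of a genotype (correlations of deviations 0.336 to 0.404 in Control and 0.605 to 0.654 in Mta123KO) and correlated at 0.440 to 0.725 in the Mta1 pair, so these pair; the values given are from the fits without the block, with the block as an alternative. Alternatives were DESeq2 1.42.0, its size factors, no filter, spike-in scaling, a replicate block, summed lines, 1 fit of all libraries, single lines, exchanged labels and each library left out. Promoters came from RefSeq.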

Additional observations from a re-analysis of the deposited data

Results flagged for a closer look

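Among 87 gene and group combinations of 4 libraries with a mean of at least 1 CPM, 3 had a library far from the other 3, and chance alone gives about 1 in 20. Col22a1 was at 2.96 CPM in Control labelled 2iL, line 1, second library, where the others held 1.90 to 2.07 CPM. Col6a2 was at 3.10 CPM in Mta123KO labelled 2iL, line 1, first library, beside 2.37 to 2.47 CPM. Col9a3 was at 12.5 CPM in Mta123KO labelled 48 h, line 1, second library, beside 13.6 to 13.7 CPM.

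The effect of Mta123KO differed between the culture labels for 8 collagen genes by the interaction test (edgeR, adjusted p in parentheses). It was larger under the 48 h label for Col6a2 by 3.75 (0.00012), Col8a2 by 2.42 (0.0072), Col9a3 by 2.30 (3.0e-06), Col11a1 by 2.00 (0.015) and Col5a2 by 1.82 (0.0005) on the log2 scale. It was smaller for Col9a2, at -2.35 (0.00015), Col1a1, at -2.17 (0.00024), and Col20a1, at -1.32 (0.0068). With libraries of a line summed, Col5a2, Col6a2, Col9a2 and Col9a3 remained called.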

How the results depend on the processing

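Of the 10 comparisons, the number of collagen genes called stayed within 1.5 times of the reported one under most alternatives. Exchanging the culture labels turned 19 into 12 and 12 into 19 by construction. Line 1 of Mta123KO alone gave 19 genes under the 48 h label. With libraries of a line summed, the count was 0 for the change with culture in Mta123KO (0 of all 24445 genes). For the interaction it was 4, where Col1a1, Col8a2, Col11a1 and Col20a1 lost their calls. The summing leaves 1 value a line and was fitted without pairing the lines. It also ended the calls of Col3a1, Col6a4, Col12a1, Col20a1, Col23a1 and Col24a1 labelled 2iL (adjusted p = 0.0719 to 0.199) and of Col26a1 labelled 48 h (adjusted p = 0.0592). Without the fold threshold 14 of 36 collagen genes tested were called in Mta2_KO, where 7460 of all 15602 genes were. Between the mutant lines labelled 48 h it was 12 of 34 collagen genes and 6201 of all 22694 genes. Leaving out 1 library at a time gave 17 to 21 genes for Mta123KO labelled 2iL, 13 to 16 labelled 48 h, 15 to 19 for the culture change in Control, 10 to 11 in Mta123KO, 8 to 9 for the interaction, 0 for Mta1, 6 to 8 for Mta2 and 0 to 18 for Mta3; the cause was not tested. With the replicate block the counts were 18, 12, 18, 14, 10, 0, 7 and 13 in that order, and the paired fits changed no call of the culture or Mta1 comparisons from called to not called. Elsewhere a shared number marks no pairing; there the block ended the calls of Col12a1 labelled 2iL (adjusted p = 0.106) and Col13a1 in Mta3 (adjusted p = 0.0552). No called gene changed direction in the alternatives fitted; exchanging the labels turns every culture change and interaction by construction. Of the genes called, 13 of 19 labelled 2iL and 11 of 12 labelled 48 h passed both thresholds in every alternative in which they were tested, as did 0 of 12 for Mta3. Depth limits the 3-read genes Col6a2 and Col24a1, and for genes under the read filter no difference was detectable.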
